A study of Homo sapiens with 28 samples.

Results

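The peaks described here surround 5 genes of the enterocyte, the absorptive cell of the intestinal lining: VIL1, CDH17, LGALS4, KRT20 and APOA1. A peak was a member when it overlapped the window of 100 kb on either side of a fixed position in the hg18 build of the human genome. The positions were 218992000 on chromosome 2 for VIL1, 95290000 on chromosome 8 for CDH17, 43995000 on chromosome 19 for LGALS4, 36295000 on chromosome 17 for KRT20 and 116213000 on chromosome 11 for APOA1. The rule used position alone, and it gave 349 of the 393268 peaks of the series. Of these, 145 of 158109 came from cells given an siRNA against RAD21 (siRAD21) and 204 of 235159 from cells given a control siRNA. Just inside the window edge, a control SMC3 peak with its summit 102.5 kb from the LGALS4 position still reached into the window, and just outside lay a siRAD21 CTCF peak 104.1 kb from the APOA1 position. Distances below are from each position to the summit of a peak, negative towards lower coordinates.

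The cells were GP5d, an established human colon adenocarcinoma line. One group received 50 nM of siRNA against RAD21 and the other 50 nM of a neutral siRNA with no target, and both were harvested after 72 h. In each, chromatin immunoprecipitation and sequencing (ChIP-seq) was done once for 11 targets, so each target had 1 library per siRNA, and no difference below has a replicate check or a test. A library's siRNA was taken from its title and description. A separate siRNA tag reads RAD21 for the CTCF library alone and carries other numbers on the same stem in the other siRAD21 libraries. General knowledge ties the catalogue number given for H3K4me1 to a reagent against total histone H3, and the one given for MYC to a mouse antibody, although it is paired here with rabbit IgG. What these libraries recovered is therefore not settled. The siRAD21 lists rested on 1747770 to 15263937 tags (aligned reads kept once per position) and the control lists on 3629966 to 19926326. In 9 of the 11 targets the siRAD21 library was the smaller. JUND, with 2.02 times as many tags under siRAD21, and MYC, with 1.02 times, were the exceptions.

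VIL1 encodes villin, which bundles actin in the microvilli of the brush border. CDH17 encodes the liver-intestine cadherin, LGALS4 the intestinal lectin galectin-4, KRT20 an intermediate filament keratin of differentiated gut epithelium, and APOA1 the main protein of high-density lipoprotein, made by liver and intestine. HNF4A is a nuclear receptor that binds enhancers and promoters of enterocyte and hepatocyte genes, and KLF5 is a zinc-finger factor of intestinal epithelium that binds C-rich sequence. Cohesin is a ring of SMC1, SMC3 and RAD21 that is loaded onto DNA with the help of NIPBL, holds sister chromatids together and forms chromatin loops. CTCF is the DNA-binding protein at which cohesin stops. H3K4me1, a single methyl group on a lysine of the histone H3 tail, is found at enhancers and beside active promoters.

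Promoter sequence is shown for the genes whose positions lay under an HNF4A peak and whose promoters RefSeq lists, to show which of the searched letters these promoters hold. RefSeq promoters (GRCh38.p14) matched 2 of the 5 symbols, LGALS4 and KRT20, and did not match VIL1, CDH17 and APOA1. The 250 bases before the start of LGALS4 lie at chr19:38812946-38813195 on the minus strand and are 63.2% G or C. Those of KRT20 lie at chr17:40885243-40885492 on the minus strand and are 41.2% G or C. Both are written 5' to 3', with matches to the KLF letters in capitals.
LGALS4: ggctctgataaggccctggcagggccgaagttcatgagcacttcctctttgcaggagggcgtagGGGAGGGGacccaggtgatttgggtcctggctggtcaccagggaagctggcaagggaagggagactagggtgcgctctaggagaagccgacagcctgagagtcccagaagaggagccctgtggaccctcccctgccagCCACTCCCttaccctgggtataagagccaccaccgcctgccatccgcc
KRT20: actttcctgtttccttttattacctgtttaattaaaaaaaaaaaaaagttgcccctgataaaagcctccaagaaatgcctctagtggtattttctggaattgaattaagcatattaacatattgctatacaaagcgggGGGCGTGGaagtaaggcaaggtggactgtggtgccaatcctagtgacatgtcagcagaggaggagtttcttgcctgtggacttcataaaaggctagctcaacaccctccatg
The KLF letters CCNCNCCC matched LGALS4 at -186 (GGGAGGGG, on the other strand) and at -48 (CCACTCCC), and KRT20 at -112 (GGGCGTGG, on the other strand), counted from the gene's start. These letters occur in 56.2% of the 35116 listed promoters, searched on both strands over 250 bases before and 50 after the start. The HNF4A letters CAAAGNNCA, held by 5.28% of listed promoters, matched neither. Nor did the letters TTTATNG of the CDX factors, held by 9.73% of listed promoters. The GATA letters AGATAA, which 10.3% of listed promoters hold, were absent as well. So were the AP-1 letters TGANTCA, which 7.71% of listed promoters hold. The E-box letters CACGTG, held by 7.26%, did not occur either, so that no KLF match overlapped another motif. In the files, no KLF5 peak covered the LGALS4 or the KRT20 position under either siRNA. The peaks are in hg18 and the promoters in GRCh38, so a match was not placed within a peak.

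Over the 5 loci, 9 of the 11 targets had fewer peaks under siRAD21 than under control siRNA, and JUND and REST had more. RAD21 itself, the target of the siRNA, had 13 siRAD21 peaks and 25 control peaks, and its partner SMC3 had 10 and 33. The loader NIPBL had 4 siRAD21 peaks and 17 control peaks. CTCF had 19 and 24, HNF4A had 14 and 18, KLF5 had 2 and 11, and H3K4me1 had 48 and 52. JUND, an AP-1 subunit, had 23 siRAD21 peaks and 6 control peaks, beside the larger siRAD21 library, and the part of depth in that count was not tested. MYC had 8 siRAD21 peaks and 14 control peaks, REST had 4 and 3, and RFX2 had 0 and 1. These counts depend on the length of the lists. With the longer list of each target cut by score to the length of the shorter, the loci held 131 siRAD21 peaks and 121 control peaks, against 145 and 204 over all deposited peaks. The order was then turned for RAD21, with 13 siRAD21 and 12 control peaks, for SMC3, with 10 and 8, and for H3K4me1, with 48 and 43. HNF4A had 14 and 14, KLF5 2 and 2, CTCF 19 and 19 and MYC 8 and 8, and NIPBL, with 4 and 5, and RFX2, with 0 and 1, were the targets that still had fewer peaks under siRAD21. JUND had 9 and 6. Cutting to equal length also removes any change in the number of peaks over a whole list. The counts then compare only the share of each list that lay in the loci. Whether list length followed depth or the siRNA was not tested.

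**Figure D1:**
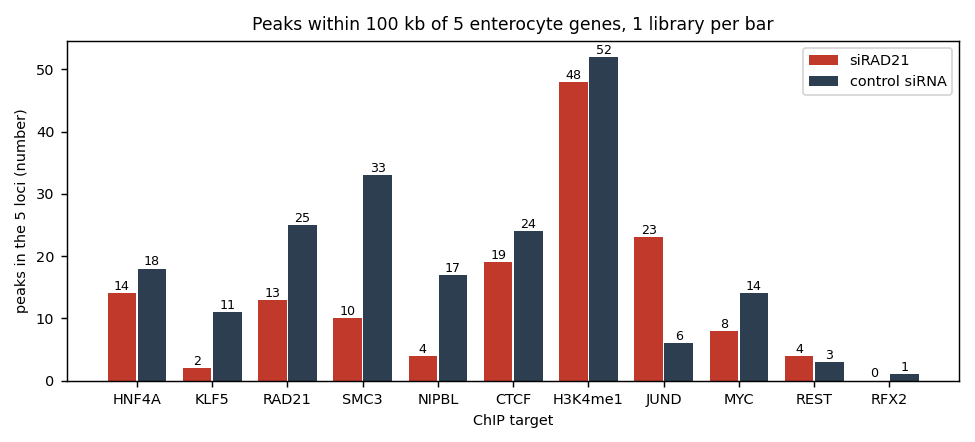
Number of called peaks (vertical axis) of each ChIP target (horizontal axis) within 100 kb of the 5 gene positions, siRAD21 in red left of control siRNA in dark blue, 1 library per bar and so no error bars. SMC3 with 10 against 33 and KLF5 with 2 against 11 stood far below their control bars, and JUND stood the other way with 23 against 6. With lists cut to equal length, which removes any change in whole-list number, these became 10 against 8, 2 against 2 and 9 against 6.

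By locus, all 11 targets together gave 38 siRAD21 and 44 control peaks at VIL1, 17 and 35 at CDH17, 45 and 56 at LGALS4, 23 and 41 at KRT20, and 22 and 28 at APOA1. At CDH17, RAD21 had 0 siRAD21 peaks and 3 control peaks, SMC3 had 0 and 6, and NIPBL had 0 and 6, where the whole lists lost 53.4%, 71.6% and 82.6% of control peaks. NIPBL also had 0 siRAD21 peaks at KRT20, and 4 control peaks. At CDH17 CTCF kept 3 of 3 control peaks, where the whole list lost 36.9%. The loci were rich in peaks. HNF4A had 14.0 siRAD21 peaks per Mb in the loci against 2.58 per Mb over the genome size used for calling, a ratio of 5.44, and 18.0 against 4.04 in control cells, a ratio of 4.45. CTCF was close to its genome density, with ratios of 1.62 under siRAD21 and 1.5 under control siRNA.

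**Figure D2:**
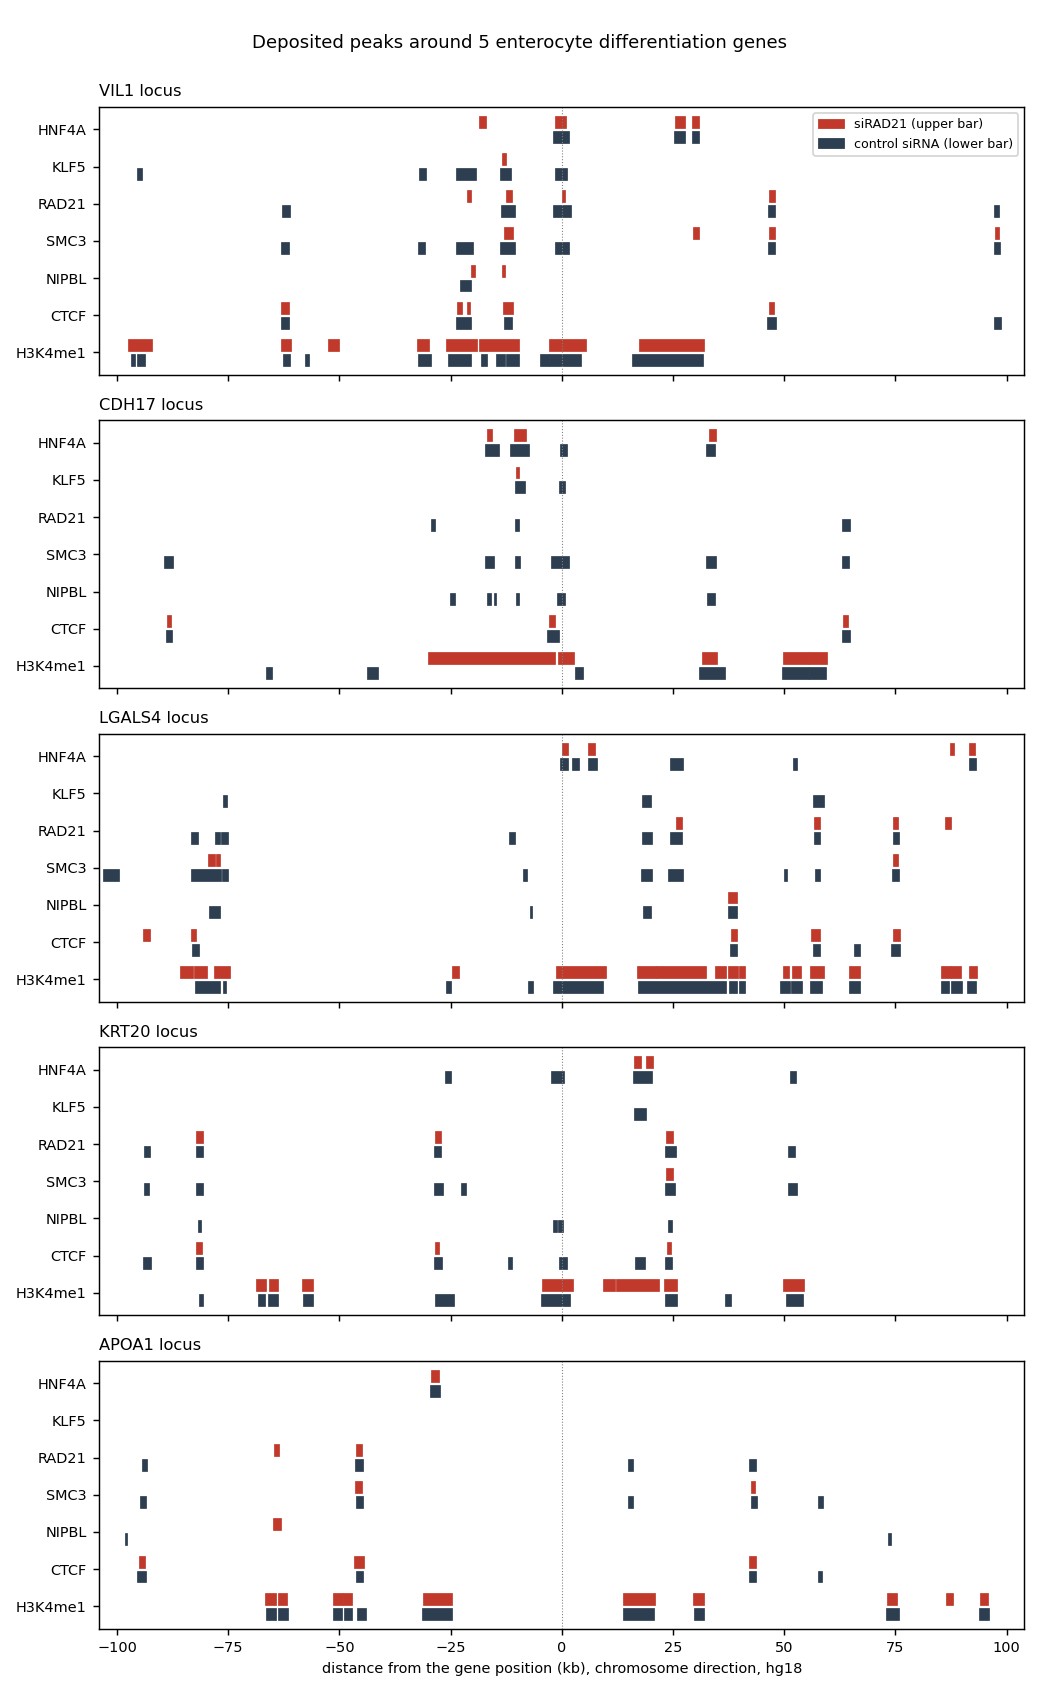
Peaks of 7 targets at each locus, drawn to scale by distance from the gene position in kb (hg18, chromosome direction), siRAD21 in red above control siRNA in dark blue. At CDH17 the RAD21, SMC3 and NIPBL tracks hold control bars alone, and a red H3K4me1 bar of 28438 bases below the position has no dark blue partner.

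Of the 18 control HNF4A peaks, 11 overlapped a siRAD21 HNF4A peak by at least 1 base and 7 did not, a lost share of 38.9% (exact 95% binomial interval 17.3 to 64.3%, counting error only, as for all intervals here). Over the whole list 66.6% of control HNF4A peaks had no siRAD21 partner. The members were strong: 10 of the 18 stood in the strongest of 5 equal bins of the control list by score, and peaks of the whole list taken from the same bins were lost in 46.7%, which lies inside the interval. With lists of equal length the lost share in the loci was 21.4% of 14 control peaks. Among 14 siRAD21 HNF4A peaks, 2 had no control partner (14.3%, interval 1.78 to 42.8%, against 47.3% of the whole list). Peaks found again had a median control score of 421.53 (105.0 to 1309.39), and those lost a median of 71.74 (56.04 to 295.02). The score is the caller's -10 times log10 p, with 50 as the cutoff. It grows with depth, and the siRAD21 HNF4A library held 0.558 times the tags of the control library.

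At VIL1 the HNF4A peak over the position itself was present under both siRNAs, with a score of 517.25 under siRAD21 and 774.13 in control cells. RPM, the tags in a peak per 1000000 filtered tags of its library, allow for depth but not for peak width. The peak held 13.4 RPM (exact 95% Poisson interval 10.4 to 17.0) in siRAD21 cells and 22.0 (19.0 to 25.3) in control cells, so the counting intervals did not overlap. The peak at +26.7 kb had 11.4 RPM under siRAD21 and 23.6 under control siRNA, and that at +30.1 kb had 5.41 and 9.16. Another HNF4A site at -17.7 kb was called under siRAD21 alone, with a score of 95.29 and 21 tags. At VIL1 all 3 control HNF4A peaks were found again, as was the 1 control HNF4A peak at APOA1. In the RefSeq order of genes, CATIP, SLC11A1 and CTDSP1 precede VIL1 and USP37, CNOT9 and PLCD4 follow it.

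CDH17 carried the strongest HNF4A peak of the 5 loci under both siRNAs, at -9.9 kb (hg18 chr8:95278363-95282575 as the union of both calls). Its score was 603.55 with 15.0 RPM (11.8 to 18.8) in siRAD21 cells and 1309.39 with 25.4 (22.2 to 28.9) in control cells. The neighbouring site at -16.4 kb barely passed the cutoff under siRAD21. Its score was 57.47 with 2.6 RPM in siRAD21 cells, against 421.53 with 13.2 in control cells, the lowest ratio of any HNF4A site found under both. At +33.7 kb HNF4A had 8.01 RPM under siRAD21 and 12.6 under control siRNA. The weak control peak over the CDH17 position, with a score of 71.74, had no siRAD21 partner.

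LGALS4 had the most HNF4A sites, 7 in all. The site nearest its position, at +0.7 kb, had a score of 52.71 and 4.0 RPM (2.45 to 6.19) in siRAD21 cells and a score of 231.0 and 11.8 RPM (9.7 to 14.3) in control cells. The strongest, at +6.9 kb, had 7.81 RPM under siRAD21 and 14.6 under control siRNA. The site at +92.5 kb had 4.41 and 5.25 RPM, with counting intervals that overlapped. Weak control peaks at +2.9, +26.4 and +52.3 kb, with scores of 61.53, 56.04 and 68.82, had no siRAD21 partner, and a siRAD21 peak at +87.7 kb with a score of 54.73 had no control partner. LGALS4 is preceded by CAPN12, LGALS7 and LGALS7B and followed by ECH1, HNRNPL and RINL in RefSeq order.

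At KRT20 3 of 4 control HNF4A peaks had no siRAD21 partner, against 3 of 6 at LGALS4 and 66.6% of the whole list. The 3 at KRT20 were the one at the position (-0.3 kb, score 295.02, 77 tags), and those at -25.6 kb (116.23) and +51.7 kb (127.0). The peak at -0.3 kb was the strongest lost HNF4A peak of the 5 loci. The remaining site, at +19.6 kb, was a single control peak with a score of 143.62 that met 2 separate siRAD21 peaks, the stronger with a score of 87.9. KRT20 lies among other keratin genes, with KRT28, KRT10 and KRT12 before it and KRT23, KRT39 and KRT40 after it.

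APOA1 had 1 HNF4A peak in its window, at -28.5 kb, under both siRNAs. It held 12.8 RPM (9.87 to 16.4) in siRAD21 cells and 29.5 (26.0 to 33.3) in control cells, with scores of 347.12 and 1066.44. No peak of any target covered the APOA1 position, and the nearest edges were H3K4me1 peaks 13.7 kb above it under siRAD21 and 13.8 kb above it under control siRNA. The genes APOA5, APOA4 and APOC3 precede APOA1, and SIK3, PAFAH1B2 and SIDT2 follow it. Which of these genes lies beneath a peak was not read, since the annotation is of another build.

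**Figure D3:**
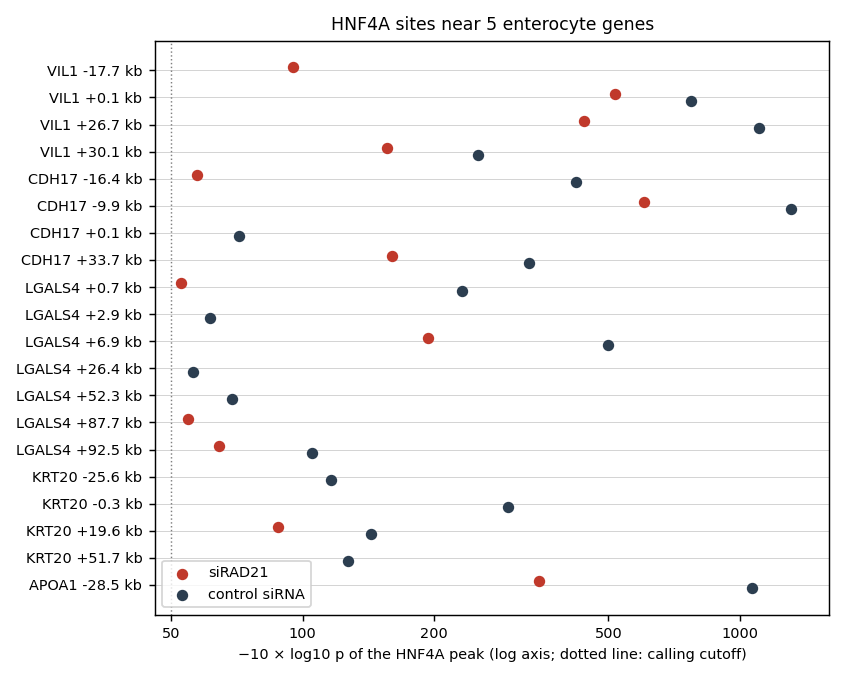
Score of the HNF4A peak (-10 times log10 p, log axis, 50 being the cutoff) at each of 20 HNF4A sites, named by distance from the gene position, siRAD21 in red and control siRNA in dark blue, 1 library each. A missing point means no peak was called: 11 sites have both points, 7 the control point alone and 2 the siRAD21 point alone, and the red point lies left of the dark blue one at all 11 shared sites.

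All 11 shared HNF4A peaks held fewer RPM under siRAD21, with a median ratio of siRAD21 to control of 0.534 (0.197 to 0.839). Over the whole list the median ratio was 0.68, and 80.6% of shared peaks held fewer. The siRAD21 calls were also narrower, with a median width ratio of 0.747 at the loci and 0.823 over the list, and a narrower peak counts fewer tags. The part of width in these ratios was not tested.

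KLF5 kept 2 of 11 control peaks. The lost share was 81.8% (interval 48.2 to 97.7%), against 89.8% of the whole list and 89.9% of peaks of like p, both inside the interval. With lists of equal length it was 50.0% of 2 control peaks. The KLF5 library under siRAD21 held 0.355 times the tags of its control. Of 2 siRAD21 KLF5 peaks, 0 lacked a control partner, against 54.9% of the whole list. The shared peaks were at CDH17 -9.9 kb, with 3.35 RPM (1.67 to 5.99) under siRAD21 and 7.99 (6.28 to 10.0) under control siRNA, and at VIL1 -12.9 kb, with 3.04 (1.46 to 5.59) and 7.99 (6.28 to 10.0). The CDH17 peak coincided with the strongest HNF4A peak of the loci.

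The strongest lost KLF5 peak, at VIL1 -21.0 kb, had 204 tags and a score of 213.89 in control cells and overlapped SMC3, NIPBL, CTCF, H3K4me1 and MYC there. Under siRAD21 the same stretch held NIPBL, CTCF, H3K4me1 and MYC peaks, and RAD21 and JUND peaks that were not called there in control cells. Control KLF5 peaks at VIL1 -95.0 kb (score 85.2), -31.2 kb (52.16) and over the VIL1 position (56.83), over the CDH17 position (90.63), 3 at LGALS4 (62.71 to 72.36) and 1 at KRT20 (81.69) were also without a partner, and APOA1 had no KLF5 peak under either siRNA. In control cells 9 of the 11 KLF5 peaks overlapped RAD21 or SMC3 (81.8%, interval 48.2 to 97.7%), against 42.9% of the whole control KLF5 list, which lies below the interval. RAD21 overlapped 6 of 11 (54.5%, 23.4 to 83.3%), against 29.6%, which lies inside. Of the SMC3 peaks, those at VIL1 -31.5 and +0.3 kb, CDH17 -9.9 and -0.2 kb and LGALS4 -75.7 kb scored 50.58 to 55.18, near the cutoff. The remaining ones scored 128.23 to 842.28. This share was not recomputed at a higher score. Under siRAD21, 1 of 2 KLF5 peaks overlapped RAD21 or SMC3, against 23.4% of the whole siRAD21 KLF5 list. KLF5 and HNF4A peaks coincided at 4 of 11 control KLF5 peaks (36.4%, 10.9 to 69.2%), against 24.0% of the whole list, which lies inside the interval.

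Over all deposited peaks, RAD21 and SMC3 had fewer peaks under siRAD21 at each of the 5 loci. RAD21 lost 15 of 25 control peaks (60.0%, interval 38.7 to 78.9%), against 53.4% of the whole list. SMC3 lost 25 of 33 (75.8%, 57.7 to 88.9%), against 71.6%, and NIPBL lost 16 of 17 (94.1%, 71.3 to 99.9%), against 82.6%. With lists of equal length the lost share was 33.3% of 12 control peaks for RAD21 and 37.5% of 8 for SMC3. New siRAD21 peaks were 3 of 13 for RAD21 (13.7% of the whole list), 1 of 10 for SMC3 (11.7%) and 3 of 4 for NIPBL (66.3%). The new RAD21 peaks, at VIL1 -21.1 kb, LGALS4 +86.7 kb and APOA1 -64.1 kb, had scores of 60.37, 64.64 and 70.22, and the new SMC3 peak, at VIL1 +30.3 kb, had 59.6. The new NIPBL peaks, at VIL1 -19.9 and -13.1 kb and APOA1 -64.3 kb, had 50.19, 68.74 and 129.37. The siRAD21 libraries of these 3 targets held 0.615, 0.531 and 0.352 times the tags of their controls, and the control NIPBL list held 0 peaks with a false discovery rate under 5%. The siRAD21 SMC3 list held 3829 of 12548 peaks under 5%. New RAD21 peaks had rates of 6.19 to 7.08%, and the new SMC3 peak 14.7%. At VIL1 the new NIPBL peaks had 27.99 and 23.92%. Shared peaks held a median of 0.437 times the control RPM for RAD21, with fewer at 10 of 10, and 0.375 times for SMC3, with fewer at 8 of 8. Each control peak was set against its best-scoring partner alone. The lowest SMC3 ratio, 0.105, came from LGALS4 -82.7 kb, with 19 tags under siRAD21 against 341. A second siRAD21 partner there, of 29 tags, was not counted. Over the whole lists these medians were 0.49 and 0.378.

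Most cohesin peaks found again lay at CTCF. Of 15 control RAD21 peaks overlapping a control CTCF peak, 8 were found again (53.3%, interval 26.6 to 78.7%), and of 10 without CTCF 2 were (20.0%, 2.52 to 55.6%). For SMC3 these counts were 8 of 19 with CTCF (42.1%, 20.3 to 66.5%) and 0 of 14 without (interval 0 to 23.2%). Of these 8, 1 was a control SMC3 peak of 6679 bases at LGALS4 -82.7 kb. Its siRAD21 partners, at -78.8 and -77.1 kb, did not reach the control CTCF peak at -82.6 kb. Over the whole lists RAD21 peaks were found again in 54.6% with CTCF and 9.39% without, and SMC3 peaks in 34.9% and 4.29%. The peaks without CTCF were also the weaker ones: in the loci RAD21 had a median control score of 388.26 with CTCF and 74.31 without. The part of peak strength in this difference was not tested.

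CTCF itself lost 7 of 24 control peaks (29.2%, interval 12.6 to 51.1%), against 36.9% of the whole list, with a siRAD21 library of 0.346 times the tags. With both lists held to a score of at least 100 the lost share was 50.0%. Of 19 siRAD21 CTCF peaks 1, at LGALS4 -93.6 kb with a score of 82.2, had no control partner, against 12.9% of the whole list. CTCF peaks that overlapped cohesin in control cells were found again in 16 of 19 cases (84.2%, 60.4 to 96.6%) and those without in 1 of 5 (20.0%, 0.505 to 71.6%), against 73.5% and 34.5% of the whole list. At 13 of 17 shared peaks CTCF held fewer RPM under siRAD21, with a median ratio of 0.702, against 0.77 over the list. The median ratio of CTCF was thus nearer to 1 than those of RAD21 and SMC3, at the loci and over the whole lists.

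Each locus had at least 1 strong site of CTCF and cohesin. At VIL1 the site at -12.2 kb had peaks of all 3 proteins under both siRNAs. The siRAD21 SMC3 peak there had a false discovery rate of 14.31%. CTCF held 12.5 RPM (9.33 to 16.4) in siRAD21 cells and 12.0 (10.1 to 14.1) in control cells. RAD21 held 6.74 (5.15 to 8.66) and 17.2 (15.1 to 19.4), and SMC3 held 4.83 (3.51 to 6.49) and 17.9 (15.9 to 20.0). CTCF counts there overlapped within counting error and cohesin counts did not. Widths differed as well: under siRAD21 the RAD21 call spanned 1281 bases against 3055 in control cells. SMC3 spanned 2024 against 3399 and CTCF 2223 against 1795, and the part of width in these counts was not tested. At -62.3 kb CTCF was called under both siRNAs, with 6.24 RPM under siRAD21 and 8.9 under control siRNA, and RAD21 and SMC3 were called in control cells alone, with scores of 655.39 and 844.48. That SMC3 peak was the strongest lost cohesin peak of the 5 loci.

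At CDH17 the site at +63.9 kb showed the same arrangement. CTCF was called under both siRNAs, with 7.69 RPM (5.26 to 10.9) in siRAD21 cells and 8.57 (6.99 to 10.4) in control cells. RAD21 and SMC3, with control scores of 264.56 and 421.32, had no siRAD21 peak. A further CTCF peak at -2.2 kb held 5.52 RPM under siRAD21 and 8.73 under control siRNA. The third, at -88.1 kb, held 3.12 and 3.49.

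At LGALS4 the site at +75.1 kb was the strongest CTCF peak of the 5 loci in control cells, with scores of 436.42 under siRAD21 and 1842.6 under control siRNA. RAD21 there held 4.53 RPM in siRAD21 cells and 6.86 in control cells, and SMC3 held 3.95 and 9.57. At -82.6 kb CTCF went the other way from most shared peaks, with 13.9 RPM (10.6 to 18.0) under siRAD21 and 8.57 (6.99 to 10.4) under control siRNA. A RAD21 peak there, with a score of 218.35, was called in control cells alone. At +57.2 kb CTCF also held more, 15.1 RPM (11.6 to 19.4) in siRAD21 cells and 7.9 (6.39 to 9.66) in control cells.

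At KRT20 the site at +24.2 kb held the strongest RAD21 and SMC3 peaks of the 5 loci in control cells. RAD21 held 6.41 RPM (4.87 to 8.28) in siRAD21 cells and 15.3 (13.3 to 17.4) in control cells, SMC3 held 4.72 (3.42 to 6.36) and 14.0 (12.3 to 15.9), and CTCF held 3.12 (1.66 to 5.34) and 12.1 (10.3 to 14.3). Here the counting intervals of CTCF, as of cohesin, did not overlap. The siRAD21 calls were narrower, at 1434 bases against 2393 for RAD21, 1643 against 2256 for SMC3 and 847 against 1566 for CTCF. The part of width was not tested. KRT20 lost 4 of 7 control CTCF peaks, among them one at +0.2 kb over the position with a score of 189.58, the remaining loci losing 1 or 0. At APOA1 the site at -45.6 kb held CTCF at 15.6 RPM (12.0 to 19.9) under siRAD21 and 17.4 (15.1 to 19.9) under control siRNA, while SMC3 held 2.86 and 9.39. The siRAD21 SMC3 peak had a false discovery rate of 13.52%. RAD21 there had scores of 253.53 under siRAD21 and 742.33 under control siRNA. At +42.9 kb, CTCF and SMC3 were called under both and RAD21, with a score of 388.26, in control cells alone. The siRAD21 SMC3 peak at +42.9 kb had a rate of 14.75%, against 2.64% at LGALS4 +75.1 kb and 2.32% at KRT20 +24.2 kb.

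The control cohesin peaks nearest the positions were called in control cells alone in 8 of 10 cases, the exceptions being RAD21 at VIL1 and the KRT20 +24.2 kb RAD21 peak above. Over the whole lists 53.4% of control RAD21 peaks and 71.6% of control SMC3 peaks were lost. The 8 peaks had scores of 51.48 to 128.75, below the whole-list medians of 201.96 for RAD21 and 180.62 for SMC3. At VIL1 the RAD21 peak at +0.1 kb was called under both siRNAs, with scores of 60.95 under siRAD21 and 56.68 under control siRNA, and the SMC3 peak at +0.3 kb, with 51.48, was lost. At CDH17 the RAD21 peak at -9.9 kb (72.01) and the SMC3 peak at -0.2 kb (55.18) were lost, and so at LGALS4 were the RAD21 peak at -11.5 kb (128.75) and the SMC3 peak at -8.2 kb (51.63). The SMC3 peak at KRT20 -22.0 kb (66.76) and the RAD21 and SMC3 peaks at APOA1 +15.3 kb (65.86 and 62.33) had no siRAD21 partner either. CTCF at LGALS4 +39.1 kb was called under both siRNAs, with scores of 51.99 under siRAD21 and 62.27 under control siRNA. At KRT20 -81.5 kb CTCF had 202.66 and 552.48.

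**Figure D4:**
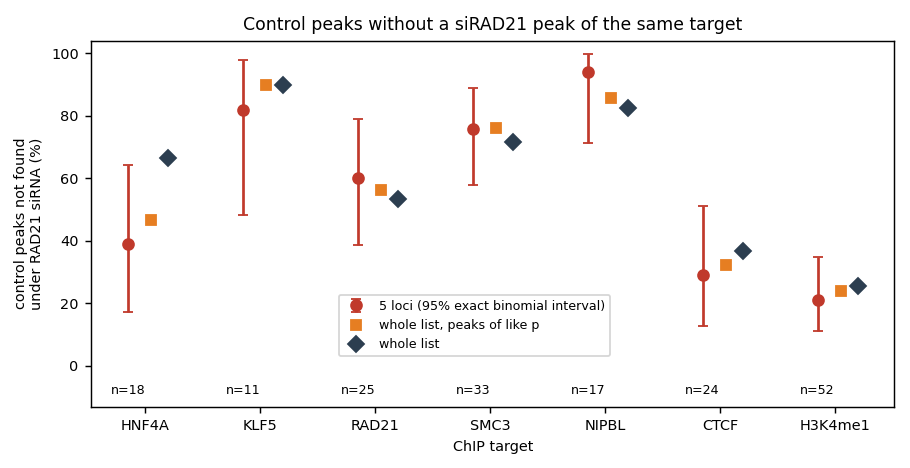
Percent of control peaks with no overlapping siRAD21 peak of the same target (vertical axis) for 7 ChIP targets (horizontal axis), in the 5 loci (red circles with exact 95% binomial intervals, n below), in whole-list peaks of like p (orange squares) and in the whole list (dark blue diamonds). The whole-list value lies inside the interval for KLF5, RAD21, SMC3, NIPBL, CTCF and H3K4me1 and above it for HNF4A (66.6% against an upper bound of 64.3%), whose value for peaks of like p, 46.7%, lies inside.

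H3K4me1 covered the loci under both siRNAs. It lost 11 of 52 control peaks (21.2%, interval 11.1 to 34.7%), against 25.7% of the whole list, and 8 of 48 siRAD21 peaks had no control partner, against 17.7%. The bases covered were 51.6 kb under siRAD21 and 45.0 kb under control siRNA at VIL1, 45.2 and 21.1 kb at CDH17, 58.6 and 59.2 kb at LGALS4, 33.9 and 25.6 kb at KRT20, and 29.9 and 31.4 kb at APOA1. CDH17 differed most. The siRAD21 library held 0.528 times the tags of the control library, and its IgG background held 4101535 filtered tags against 8916252. The part of either in the larger cover at CDH17, KRT20 and VIL1 was not tested.

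The difference at CDH17 was 1 broad siRAD21 peak, 28438 bases long (hg18 chr8:95259989-95288426), with 1181 tags, a score of 1525.85 and a fold over IgG of 33.98. No control H3K4me1 peak overlapped it, and the nearest control peak above it began beyond the CDH17 position. A second siRAD21 peak, with 138 tags and a score of 395.02, covered the position itself, where no control H3K4me1 peak was called. At KRT20 a siRAD21 peak of 9616 bases (hg18 chr17:36307226-36316841) held 435 tags with a score of 664.49, again without a control partner. Among the 12 siRAD21 H3K4me1 peaks of the loci with a score of at least 600, a limit set after the values were seen, 2 lacked a control partner, and over the whole list this held for 178 of 7434, or 2.39%. Of whole-list siRAD21 peaks of at least 9000 bases, 47 of 2022 (2.32%) lacked one. The other strong H3K4me1 peaks were present under both siRNAs, such as VIL1 +27.5 kb with scores of 1715.78 under siRAD21 and 1558.52 under control siRNA. The APOA1 peak at +16.3 kb had 1746.44 and 1746.35. Over the LGALS4 position the scores were 2190.4 with 435 tags under siRAD21 and 384.81 with 951 tags under control siRNA. The strongest control H3K4me1 peak without a partner, at KRT20 -27.3 kb, had a score of 442.14. The LGALS4 peak at +24.7 kb had scores of 2222.44 under siRAD21 and 1716.47 under control siRNA, the VIL1 control peak at -0.5 kb and the siRAD21 peak overlapping it had 1187.13 under siRAD21 and 1426.11 under control siRNA, and the CDH17 peak at +56.8 kb had 634.23 and 1128.61. A control peak at CDH17 +3.7 kb, with a score of 85.69, had no partner. New siRAD21 peaks at VIL1 -51.5 kb, LGALS4 -23.7 kb and APOA1 +87.0 kb had scores of 149.51, 70.15 and 77.74.

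Both broad stretches without a control H3K4me1 peak carried HNF4A. In siRAD21 cells 14 of 14 HNF4A peaks overlapped H3K4me1 (84.6% of the whole list), and in control cells 14 of 18 did (77.8%, interval 52.4 to 93.6%, against 87.8%). The 4 control HNF4A peaks without H3K4me1 were CDH17 -16.4, -9.9 and +0.1 kb and KRT20 +19.6 kb, and each lay under a siRAD21 H3K4me1 peak. HNF4A was lost at some sites where H3K4me1 remained: the KRT20 -0.3 kb site had H3K4me1 with scores of 732.15 under siRAD21 and 2316.93 under control siRNA. Of the 7 lost HNF4A sites, KRT20 -25.6 kb was the one with no siRAD21 H3K4me1 peak.

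The other targets with a peak at the 20 HNF4A sites were counted under each siRNA. RAD21 or SMC3 lay at 4 sites under siRAD21 and 7 under control siRNA. RAD21 lay at 3 and 4, SMC3 at 1 and 7, and NIPBL at 0 and 5. KLF5 lay at 1 and 4, CTCF at 0 and 2, MYC at 3 and 3, and RFX2 at 0 and 1. H3K4me1 lay at 19 and 16 sites. JUND lay at 10 sites under siRAD21 and 3 under control siRNA. As a share of HNF4A peaks, 38.9% of control peaks overlapped RAD21 or SMC3 (interval 17.3 to 64.3%), against 35.6% of the whole list, and 21.4% of siRAD21 peaks did (4.66 to 50.8%), against 20.2%. RAD21 overlapped 14.3% of siRAD21 HNF4A peaks (16.6% of the whole list) and 22.2% of control ones (26.3%). SMC3 overlapped 7.14% of siRAD21 HNF4A peaks (10.8%) and 38.9% of control ones (29.5%). NIPBL overlapped 0% (21.5%) and 27.8% (32.6%), and KLF5 7.14% (6.65%) and 22.2% (16.8%). The whole-list shares of RAD21, SMC3, NIPBL and KLF5 were thus also lower under siRAD21. CTCF overlapped 0% of siRAD21 peaks (19.4%) and 11.1% of control ones (15.0%), and MYC 28.6% (23.5%) and 16.7% (29.4%). Control HNF4A peaks with cohesin were found again in 4 of 7 cases and those without in 7 of 11. The whole list, of which 66.6% was lost, was not split by cohesin, so these counts have no share to stand beside.

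**Figure D5:**
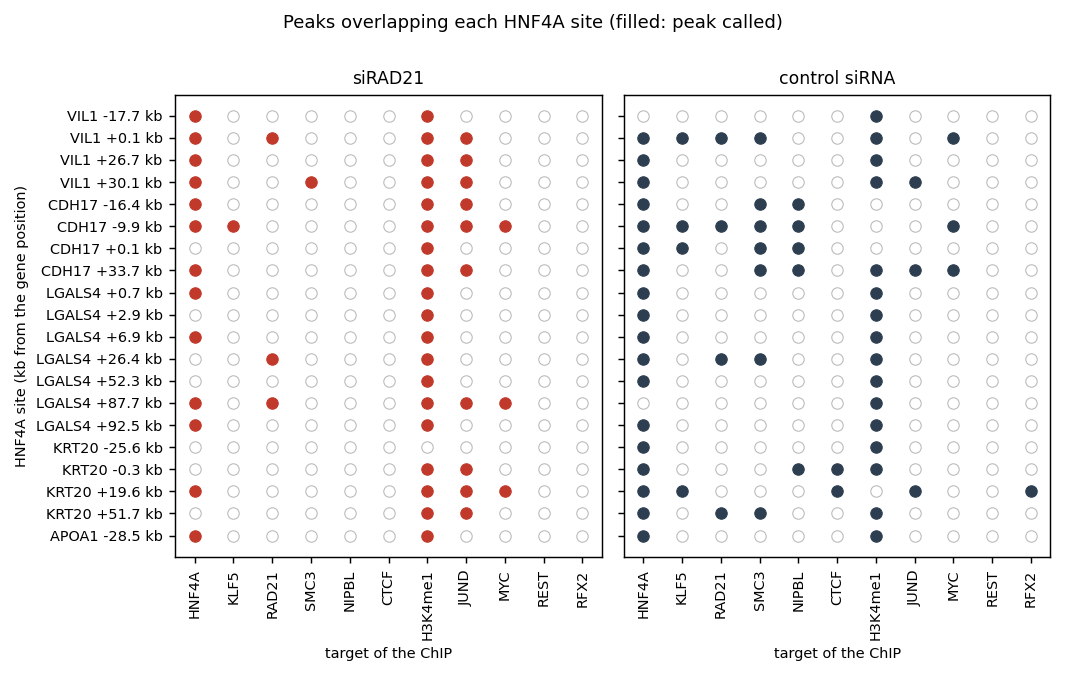
ChIP targets (horizontal axis) with a peak overlapping each of the 20 HNF4A sites (vertical axis, distance in kb from the gene position), siRAD21 on the left and control siRNA on the right, a filled circle standing for a called peak. Filled circles for RAD21, SMC3 and NIPBL are 3, 1 and 0 under siRAD21 and 4, 7 and 5 under control siRNA. Those for JUND are 10 and 3.

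JUND kept 6 of 6 control peaks and lost 0, against 64.9% lost over the whole list (interval for the loci 0 to 45.9%). Of its 23 siRAD21 peaks 17 had no control partner (73.9%, 51.6 to 89.8%), against 86.7% of the whole list. The control JUND list held 0 peaks with a false discovery rate under 5%, and the siRAD21 list 718 of 12319. The siRAD21 JUND peaks at VIL1, CDH17 and LGALS4 had a rate of 6.19%, so they too were above 5%. JUND peaks called under siRAD21 met HNF4A at VIL1 +0.1 and +26.7 kb and CDH17 -9.9 kb, where none was called in control cells. Of siRAD21 HNF4A peaks 64.3% overlapped JUND (35.1 to 87.2%), against 37.9% of the whole list, and of control HNF4A peaks 16.7% did, against 12.2%. MYC lost 8 of 14 control peaks (71.1% of the whole list) and 2 of 8 siRAD21 MYC peaks were new (45.1%). REST, a repressor of neuronal genes, lost 1 of 3 control peaks (30.9%) and 2 of 4 siRAD21 peaks were new (34.6%). The single control RFX2 peak, at KRT20, was lost (86.8%), and RFX2 had no siRAD21 peak here, 76.3% of its whole siRAD21 list being new.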

How the data were processed

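The 28 libraries comprised 22 with a deposited peak list, 11 targets under either siRNA, besides 6 IgG libraries. Per the submitters' processing notes, reads came through CASAVA 1.4 and BWA against hg18. Per the file headers, the authors called peaks with MACS 1.4.0rc2 on each library against IgG of the same siRNA, at a cutoff of 1e-05 on p, with 1 tag kept per position and a band width of 300 bases. Each deposited list gives a count of tags per peak, a score (-10 times log10 p, per the file headers), a fold or ratio over background and, in a last unnamed column, the false discovery rate in percent. The number of peaks under 5% in that column equals the number the labels give in all 22 lists. These are the authors' values per peak.

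Groups came from titles. Peaks were joined by an overlap of at least 1 base in Python 3.11.15 with pandas 2.3.3, numpy 2.4.6 and scipy 1.17.1, the overlap code having been tested on simulated intervals. A lost peak is a control peak without a siRAD21 peak of its target, and shares of like p weight the whole list by 5 equal bins of score. RPM are a peak's tags per 1000000 filtered tags of its library. Intervals are exact (Clopper-Pearson or Poisson) at 95% and cover counting error only. With 1 library per target and siRNA no test was made.

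The peaks named are, at each locus for HNF4A, KLF5, RAD21, SMC3, CTCF and H3K4me1, the strongest under each siRNA, the control peak nearest the position and the strongest siRAD21 peak without a control partner. All HNF4A and KLF5 peaks are accounted for. The other CTCF and cohesin sites and the broad H3K4me1 limits were chosen after their values were seen. The members and lists were chosen with earlier results of these data known. Gene order is that of RefSeq GRCh38.p14, and peak sequences were not read, since no hg18 genome was used here. Motifs in promoters of other enterocyte genes are not given, because 16 of 25 had an entry and the check is void below 80%. The alternatives tried were a higher score, a false discovery rate under 5%, equal list lengths, summit distance, other windows and leaving out each locus.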

Additional observations from a re-analysis of the deposited data

How the results depend on the processing

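No paired analysis was possible because each target had 1 library per siRNA. Of 149 values, 129 stayed within the interval of the value reported or within 1.5 times of a count. The intervals are wide and the settings share peaks, so this tally is no measure of stability. A KLF5 lost share of 50.0% against 81.8%, and a CTCF one of 50.0% against 29.2%, both counted as staying. With the longer list of each target cut to the length of the shorter by score, the siRAD21 peaks numbered 131 and the control peaks 121, so that siRAD21 peaks were the more numerous, against 145 and 204 over all deposited peaks. The cut also removes any change in the number of peaks over a whole list. With lists so cut, the lost share was 33.3% for RAD21, 37.5% for SMC3, 100.0% for NIPBL, 21.4% for HNF4A, 50.0% for KLF5 and 14.0% for H3K4me1. With a score of at least 100 the lost share was 89.5% for SMC3, 100.0% for NIPBL, 50.0% for CTCF and 10.5% for H3K4me1, the siRAD21 and control peaks numbered 83 and 121, and 7.14% of control HNF4A peaks overlapped cohesin, as did 7.14% KLF5. With a false discovery rate under 5% the lost share was 90.9% for SMC3 and 7.89% for H3K4me1, the siRAD21 peaks numbered 94, NIPBL had no control peaks to give a value, and 21.4% of control HNF4A peaks overlapped cohesin and 14.3% KLF5. Joining summits within 250 bases, H3K4me1 lost 55.8% and 11.1% of control HNF4A peaks met H3K4me1, whose peaks are broad. Without the LGALS4 locus NIPBL lost 100.0%. Windows of 50 kb held 94 siRAD21 and 129 control peaks, and windows of 200 kb held 253 and 348. Chosen after seeing the data, a join within 1000 bases gave lost shares of 33.3% for HNF4A, 72.7% for SMC3 and 13.5% for H3K4me1. The siRAD21 and control peaks numbered 118 and 181 without JUND and NIPBL, and 97 and 152 without H3K4me1, also chosen after seeing the data. The cause of these shifts was not tested. Depth limits all shares: 9 of 11 siRAD21 libraries were the smaller, and a peak not called may lie below the cutoff.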
